A study of Mus musculus with 16 samples.

Results

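Microglia sorted from the retinas of 18- and 24-month-old mice (8 arrays) were compared with microglia of 3- and 12-month-old mice (8 arrays). The question was which genes changed between 12 and 18 months and stayed changed. All 16 arrays of the series entered, 4 per age, and all 16755 features on them were tested. The mice of every age were wild type C57BL/6, so no allele or agent separates the groups. The cells were sorted by flow cytometry with a fluorescent antibody to CD11b, an integrin that monocytes, macrophages, neutrophils and natural killer cells also carry. Replicates are biological per the labels, which do not give the number of animals behind each, so the p-values rest on the spread between these arrays.

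Microglia are the resident macrophages of the retina. They survey the tissue with motile processes, clear debris and synaptic material, and answer injury with cytokines, chemokines and complement. They lie in the inner and outer synaptic layers of the retina, among the processes of neurons and of Müller glia, and in old rodents they are known to enter the layer below the photoreceptors.

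Levels are log2 values, and differences are older minus younger on that scale unless another pair of ages is named. A gene rose or fell where limma's moderated test gave an adjusted p under 0.05 (Benjamini-Hochberg, all features). A step was a called change that met 2 further conditions. First, 18 and 24 months each differed from 12 months in that direction with an unadjusted p under 0.05. Second, the changes from 3 to 12 and from 18 to 24 months were each smaller than 0.5 times the whole difference.

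Arrays of the same age differed in their levels of cell type genes. The score of homeostatic microglia genes was −2.02 on 24-month replicate 1, −1.61 on 18-month replicate 1 and −1.27 on 18-month replicate 2, against −0.55 to 0.70 on the other 13 arrays. Here a score is the mean of a list's members after each was centred on its mean over the 16 arrays. Rod genes were lowest on 3-month replicates 4 and 3, at −2.38 and −2.04. Replicates 1 and 2 of 18 months had a rank correlation of 0.990, against 0.824 to 0.973 in the other 119 pairs of arrays. The labels also carry a running array number of unstated meaning. Numbers 1 to 8 held 6 younger and 2 older arrays, and 9 to 16 held 2 younger and 6 older ones. The younger arrays in 9 to 16 were 3-month replicates 3 and 4, the 2 lowest in rod genes. The older arrays in 1 to 8 were 24-month replicates 1 and 2. Since all 12-month arrays lay in 1 to 8 and all 18-month arrays in 9 to 16, the step from 12 to 18 months and the array number cannot be told apart. A comparison within 1 of these number groups does not span that step.

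**Figure D1:**
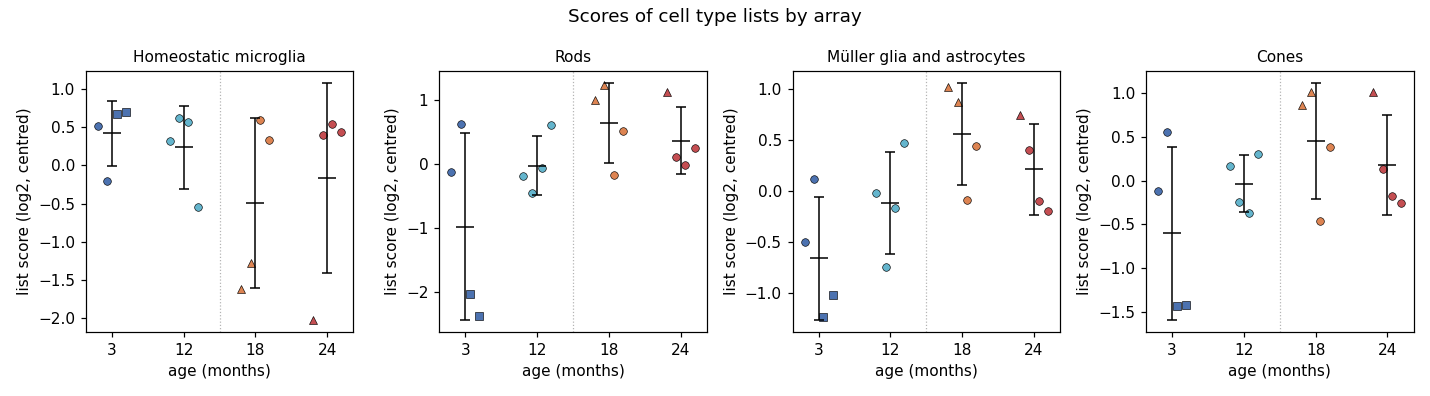
Scores of 4 cell type lists (log2, each member centred on its mean over 16 arrays) by age in months, 1 point per array, with the mean and SD of each age (n = 4). Triangles mark the 3 arrays lowest in homeostatic microglia genes and squares the 2 lowest in rod genes. The triangles lie at −2.02 to −1.27 in the microglia panel and are all from older mice; the squares are from 3-month mice.

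In all, 5435 features differed between the older and the younger arrays (32.4% of those tested). Of these 650 rose (3.88%) and 4785 fell (28.6%). The step shape was met by 81 rises (0.483%) and 1779 falls (10.6%). The rises were fewer and larger, with a median of 0.78 at a median level of 8.52, and the falls smaller, with a median of −0.34 at a level of 6.48. A difference beyond 1 was seen in 214 of the rises and 15 of the falls. No feature was called when the rod score entered the fit as a covariate, when the 3 arrays lowest in microglia genes were left out, or within array numbers 1 to 8, though 5181, 3921 and 3245 features then had an unadjusted p under 0.05. Within array numbers 9 to 16, 112 features were called, 88 of them rises, and 51 of the 112 were also called over all arrays. The younger arrays of that comparison were only the 3-month replicates 3 and 4, the 2 lowest in rod genes.

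The falls followed the level of a feature. In 10 groups of features ordered by level, the median difference was −0.15 in the dimmest, −0.28 between levels 5.95 and 6.73, 0.04 between 7.87 and 8.47, and 0.11 in the brightest. Older arrays had medians of 6.88 to 6.99 and younger arrays 7.04 to 7.18, with no overlap. The median feature differed by −0.16, and a difference relative to it is given below where the scale matters. For features at levels of 5.95 to 7.07 this reference is too small, since their groups had medians of −0.28 to −0.27. After each array was centred on its median, 324 rises (1.93%) and 407 falls (2.43%) were called, so that falls made up 55.7% of the calls in place of 88%. Calls on both scales numbered 311 rises and 407 falls, and 66 rises and 175 falls kept the step shape on both.

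**Figure D2:**
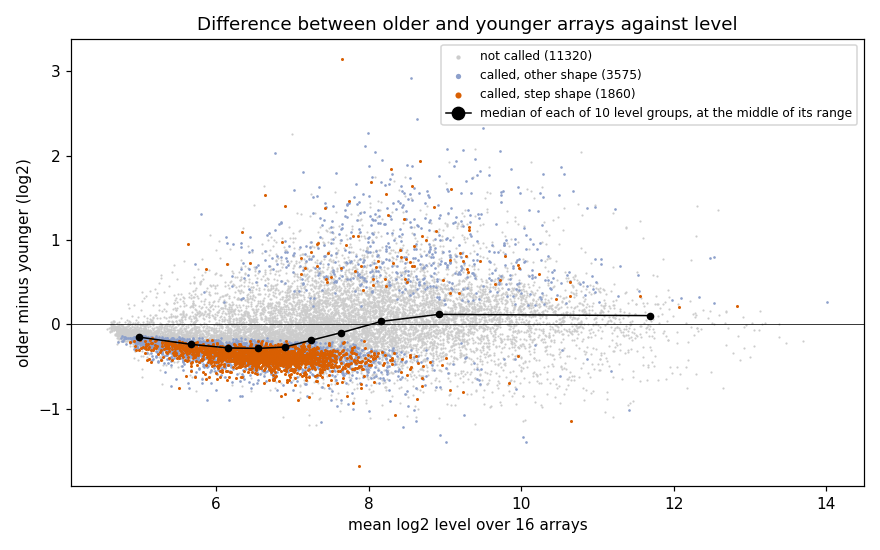
Older minus younger difference (log2) of all 16755 features against their mean level over 16 arrays. Grey points were not called, blue points were called with another shape (3575) and orange points are the 1860 step features; black dots give the median of each of 10 level groups and run from −0.15 through −0.28 to 0.11.

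Among the step rises, 8 had no overlap between the 8 older and the 8 younger arrays. Over all features, such separation was seen for 11 rises (0.0657%) and 539 falls (3.22%). The 8 genes were Spa17, Chil1, Ganab, Usp47, Snx14, Zmynd11, Chd4 and Hipk1.

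Spa17 (feature 6994705) encodes sperm autoantigenic protein 17, a protein of the sperm flagellum and of motile cilia that binds anchoring proteins of protein kinase A. Its level was 5.75, 5.66, 5.60 and 5.49 at 3 months and 7.27, 5.37, 6.08 and 7.42 at 12 months. It was 9.63, 9.59, 9.38 and 10.00 at 18 months and 10.13, 7.93, 9.32 and 7.82 at 24 months. The 18-month arrays lay close together, and the 24-month arrays fell into a higher and a lower pair, all above the 12-month arrays. The mean was 6.08 ± 0.81 (SD, n = 8) in younger and 9.23 ± 0.88 in older mice, a rise of 3.15 with a standard error of 0.35 (limma, adjusted p = 0.0061). The rise passed without any 1 of the 16 arrays, at 2.92 to 3.31. It was 2.91 within array numbers 1 to 8, where it did not pass, and 3.57 within 9 to 16, where it did (limma, adjusted p = 0.0194). The only younger arrays in 9 to 16 were 3-month replicates 3 and 4. Without the 3 arrays lowest in microglia genes the rise was 2.94 (adjusted p = 0.0635).

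Chil1 (feature 6753247) encodes chitinase-3-like protein 1, a secreted lectin of activated macrophages and astrocytes. Its level was 6.93, 7.00, 7.17 and 7.58 at 3 months, 7.62, 7.65, 7.20 and 7.02 at 12 months, 8.70, 8.34, 8.13 and 8.38 at 18 months, and 8.90, 8.65, 7.72 and 7.75 at 24 months. The lowest older array, at 7.72, was just above the highest younger one, at 7.65. The rise was 1.05 with a standard error of 0.19 (limma, adjusted p = 0.0116). It was 1.61 within array numbers 1 to 8 and 0.69 within 9 to 16, and did not pass in either.

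The promoters of both are shown because these rises were the largest of the separated steps. Each is the RefSeq window (GRCm38.p6) from 250 bases before to 50 after the first listed start. Capitals mark GGGCGG (GC box), CCAAT and TATAAA on either strand. The windows lie at chr9:37613672-37613971 (minus strand) for Spa17 and chr1:134181906-134182205 (plus strand) for Chil1.
Spa17: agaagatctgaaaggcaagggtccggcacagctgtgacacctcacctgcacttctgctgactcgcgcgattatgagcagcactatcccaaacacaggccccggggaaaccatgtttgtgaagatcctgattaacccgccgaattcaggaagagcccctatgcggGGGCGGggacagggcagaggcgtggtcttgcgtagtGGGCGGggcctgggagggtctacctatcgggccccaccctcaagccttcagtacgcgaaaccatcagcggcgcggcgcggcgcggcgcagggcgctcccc
Chil1: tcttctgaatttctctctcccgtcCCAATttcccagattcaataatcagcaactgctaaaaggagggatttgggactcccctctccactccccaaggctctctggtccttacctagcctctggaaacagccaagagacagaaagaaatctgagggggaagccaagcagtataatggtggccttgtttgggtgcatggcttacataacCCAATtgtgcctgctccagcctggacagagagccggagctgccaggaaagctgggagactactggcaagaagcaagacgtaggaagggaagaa

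The Spa17 window held 24 CG pairs and 2 GC boxes, and the Chil1 window 3 CG pairs and 2 CCAAT matches. The median over the 27025 genes with a window was 7 CG pairs. GC boxes were found in 5 of the 8 step rises, CCAAT in 5 and TATAAA in 0, against 35.9%, 37.9% and 14.2% of all windows. In RefSeq, Spa17 starts next to Siae, which is read from the opposite strand and encodes a sialic acid esterase. Siae, picked once its values were known, lay at 7.18 to 8.85 in younger and 7.90 to 8.42 in older mice, a difference of 0.21 that did not pass (limma, adjusted p = 0.493).

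The other 6 separated rises were smaller, and the older and younger arrays lay close at the boundary. Ganab, the catalytic subunit of the glucosidase that trims N-glycans in the endoplasmic reticulum, was at 7.85 to 9.28 in younger and 9.28 to 9.76 in older mice, a rise of 0.77 (SE 0.17). Usp47, a deubiquitinase, was at 9.29 to 9.93 and 9.95 to 10.79, a rise of 0.67 (SE 0.12). Snx14, a sorting nexin of the endoplasmic reticulum, was at 8.63 to 9.31 and 9.34 to 9.88, a rise of 0.66 (SE 0.12).

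The remaining 3 act in the nucleus. Zmynd11, a reader of methylated histones, was at 9.65 to 10.17 in younger and 10.19 to 11.28 in older mice, a rise of 0.60 (SE 0.15). Chd4, the ATPase of the NuRD chromatin remodelling complex, was at 9.01 to 9.74 and 9.82 to 10.37, a rise of 0.53 (SE 0.11). Hipk1, a nuclear kinase that phosphorylates transcription factors, was at 8.65 to 9.02 and 9.09 to 9.58, a rise of 0.37 (SE 0.08). Adjusted p was 0.0116 to 0.0148 in limma for these 6 genes. All 8 separated rises also passed after median centring, and all 8 passed without any 1 array. After quantile normalization 4 of them did not pass: Ganab (adjusted p = 0.052), Zmynd11 (0.086), Chd4 (0.0793) and Hipk1 (0.118). As genes picked for separated arrays, all 8 had to be positive within array numbers 1 to 8 and within 9 to 16. Of the 8 only Spa17 passed within 9 to 16 and none within 1 to 8.

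**Figure D3:**
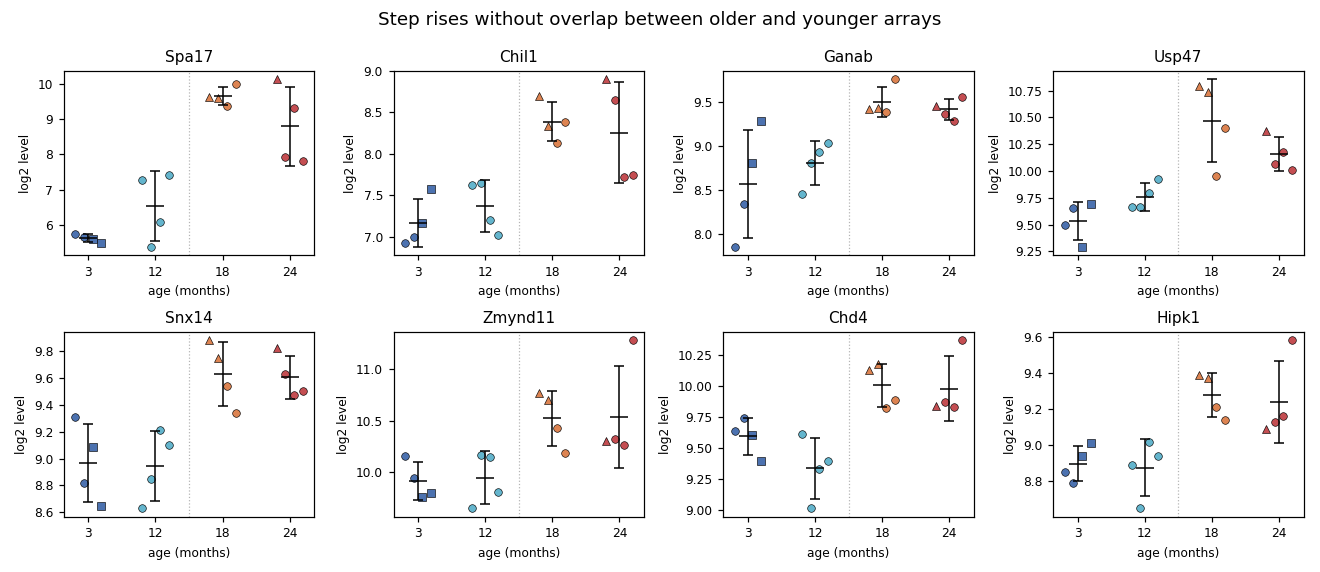
Log2 level of the 8 step rises without overlap, by age in months; 1 point per array, with the mean and SD of each age (n = 4). Triangles are the 3 arrays lowest in microglia genes, squares the 2 lowest in rod genes, and the dotted line divides younger from older ages. Spa17 goes from 5.37 to 7.42 in younger mice to 7.82 to 10.13 in older mice.

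Several larger step rises overlapped between the groups. All but Cd36, which came from a gene list, were picked once their values were known. Slc14a1, a urea transporter, was at 6.67 to 10.18 in younger and 8.67 to 10.65 in older mice, a rise of 1.94 (SE 0.45, limma adjusted p = 0.0122). Its overlap came from 12-month replicate 4, at 10.18, and the next younger array stood at 8.13. Usp6nl, an activator of Rab GTPase hydrolysis in endosomal traffic, was at 6.64 to 8.52 and 8.20 to 10.00, a rise of 1.85 (SE 0.32).

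Cd36, a scavenger receptor for oxidised lipids and apoptotic cells, stood at 8.20, 5.50, 5.91 and 8.11 at 3 months and 8.68, 7.05, 7.79 and 6.29 at 12 months. It was 9.09, 8.75, 9.36 and 8.43 at 18 months and 8.81, 8.88, 8.47 and 9.25 at 24 months. The younger arrays were spread over more than 3 units and the older ones over less than 1. The rise was 1.69 (SE 0.42, limma adjusted p = 0.0144). Without the 3 arrays lowest in microglia genes it was 1.69 as well, but no feature passed in that fit.

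Hsd17b12, an enzyme of fatty acid elongation, was at 7.10 to 8.60 and 8.51 to 9.60, a rise of 1.25 (SE 0.22). Gng3, a G protein gamma subunit of neurons, was at 5.10 to 7.17 and 6.65 to 7.98, a rise of 1.53 (SE 0.36). Rgs6, a regulator of G protein signalling, was at 5.86 to 6.68 and 6.45 to 8.54, a rise of 1.40 (SE 0.28). These 3 passed with adjusted p of 0.0116 to 0.0126 in limma, and the highest array of each was 18-month replicate 1, 1 of the 3 lowest in microglia genes.

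Among the step falls with 1 symbol, 422 had no overlap, and the 12 largest ran from −0.78 to −0.59. Mfsd5, a transporter of the major facilitator superfamily, stood at 9.42, 9.25, 9.77 and 9.78 at 3 months and 9.46, 9.43, 9.39 and 9.20 at 12 months. It stood at 8.46, 8.23, 9.15 and 9.11 at 18 months and 8.45, 8.54, 8.80 and 8.74 at 24 months. Its fall was −0.78 (SE 0.14, limma adjusted p = 0.0116), or −0.61 relative to the median feature. The 3 lowest arrays were those lowest in microglia genes, and without them the difference was −0.55.

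Pkib, an inhibitor of protein kinase A, was at 6.98 to 7.47 in younger and 6.22 to 6.87 in older mice, a fall of −0.65 (SE 0.11). Qprt, which feeds the tryptophan metabolite quinolinate into NAD synthesis, was at 7.02 to 7.79 and 6.33 to 7.01, a fall of −0.59 (SE 0.13). Lzts1, a leucine zipper protein of synapses and the cell cycle, was at 6.80 to 7.45 and 6.13 to 6.62, a fall of −0.66 (SE 0.11). Fpr-rs3, of the formyl peptide receptor family, was at 6.95 to 7.51 and 6.32 to 6.88, a fall of −0.66 (SE 0.11). These 4 fell with adjusted p of 0.0116 to 0.0117 in limma.

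The other 7 of the 12 were Olfr1226 and Olfr692, which encode odorant receptors, Tigd5, 1700006J14Rik, Aym1, 4930474N05Rik and Hnf4aos. Their falls were −0.68 to −0.60. Of the 12 falls, 11 also passed after median centring, and Aym1 did not (adjusted p = 0.0587). The odorant receptor family shows what the falls of dim features looked like. Its 713 features had a median level of 5.30, 0 rose and 226 fell (31.7%), with a median difference of −0.23. The dimmest features in all (a share of 0.333 by level) fell in 43.7% of cases, with a median of −0.22. Members of this family have near-identical copies, so their features are uncertain.

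**Figure D4:**
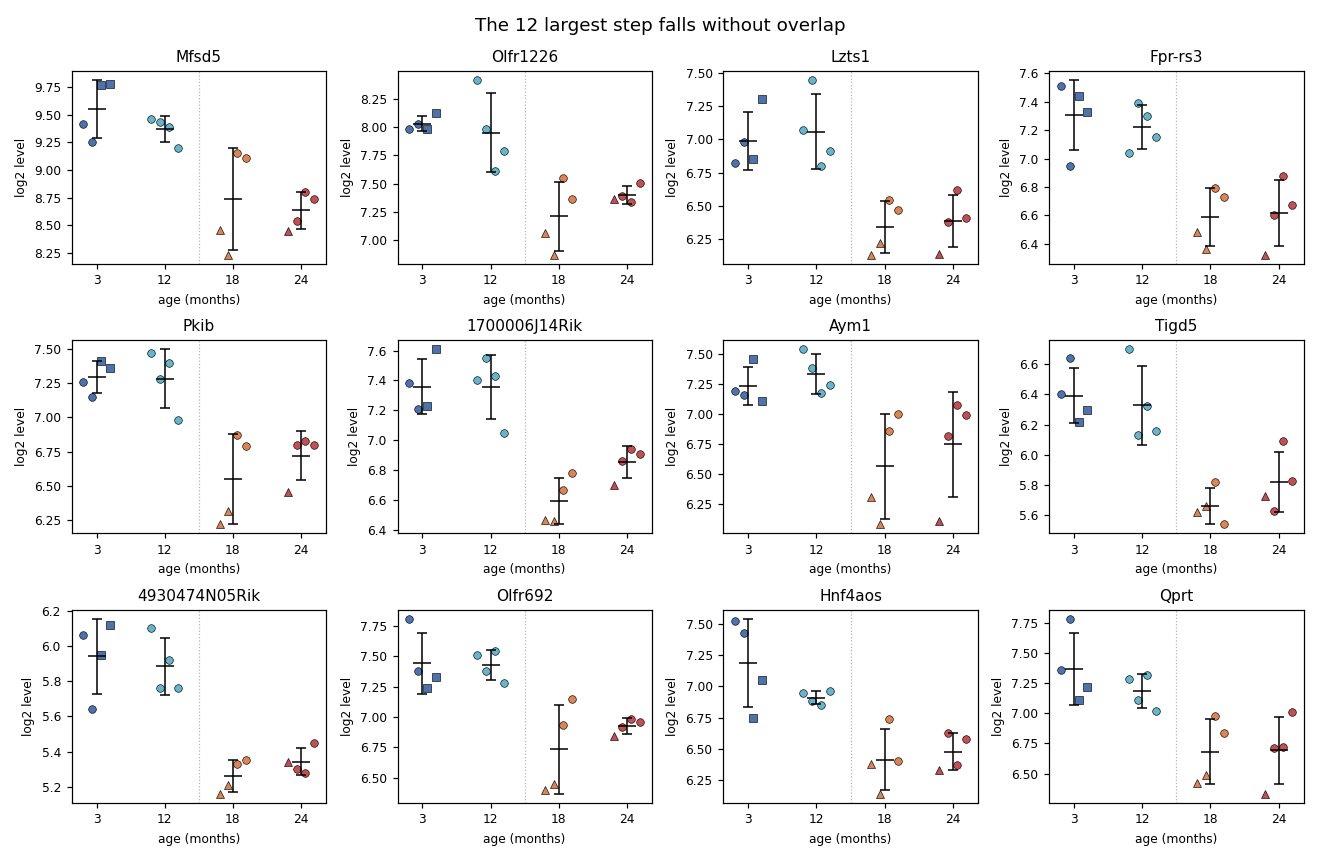
Log2 level of the 12 largest step falls without overlap, by age in months; 1 point per array, with the mean and SD of each age (n = 4), and markers as for the step rises. The falls run from −0.78 for Mfsd5 to −0.59 for Qprt.

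Larger step falls overlapped between the groups, and those that follow were picked once their values were known. Fos and Jun encode the subunits of the AP-1 transcription factor, whose transcripts rise within minutes of cell stimulation. Fos was at 7.42, 7.78, 8.37 and 9.02 at 3 months, 8.70, 8.31, 8.03 and 7.56 at 12 months, 7.19, 7.23, 7.34 and 7.63 at 18 months, and 7.39, 7.31, 7.21 and 7.07 at 24 months. Only 18-month replicate 4 reached the range of the younger arrays. The fall was −0.85 (SE 0.21, limma adjusted p = 0.0136), and it was −0.52 within array numbers 1 to 8 and −1.45 within 9 to 16 (adjusted p = 0.0412). In 9 to 16 the only younger arrays were 3-month replicates 3 and 4, at 8.37 and 9.02. Jun was at 8.93 to 9.99 in younger and 8.36 to 9.28 in older mice, a fall of −0.80 (SE 0.18).

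Klf2, a transcription factor that restrains inflammatory genes in myeloid cells, was at 7.36 to 9.26 and 6.79 to 7.83, a fall of −0.93 (SE 0.23). Msrb2, a mitochondrial enzyme that repairs oxidised methionine, was at 8.01 to 10.10 and 7.30 to 8.44, a fall of −1.08 (SE 0.28). After median centring Fos, Jun, Klf2 and Msrb2 did not pass, with adjusted p of 0.056, 0.0502, 0.0541 and 0.0595. The largest step fall, Prps1l1, a testis relative of phosphoribosyl pyrophosphate synthetase, was −1.67 with a standard error of 0.60 (limma, adjusted p = 0.047). It passed in 4 of the 16 fits that left out 1 array, those without 3-month replicate 2, 12-month replicate 4, 18-month replicate 3 or 24-month replicate 3. In the other fits it lay between −1.85 and −1.37.

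Gene lists were read by their counts and medians beside the shares over all features, 3.88% for rises and 28.6% for falls. Over the 56 lists, 55 of 845 measured genes rose and 150 fell. Of 24 homeostatic microglia genes 0 rose and 0 fell, with a median of −0.68. The purinergic receptor gene P2ry12 was at 11.20 to 12.38 in younger mice, and in older mice at 9.93, 10.22, 12.05 and 11.74 at 18 months and 8.69, 11.78, 11.97 and 11.71 at 24 months. The 3 low values are the 3 arrays low in the list, and without them the difference of −0.91 became −0.06. Itgam, the gene of CD11b, differed by −0.59 (adjusted p = 0.397), and Trem2, a lipid-sensing receptor, by −0.95 (adjusted p = 0.0809). Leaving out those 3 arrays gave 0.32 and −0.19. P2ry12, Itgam and Trem2 belong to the list whose low score picked these arrays, all from older mice. Their shift upward was therefore largely fixed by that choice. Of 17 disease-associated microglia genes and 6 MHC class II genes, 0 rose and 0 fell.

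Phagocytosis genes showed 1 rise, Cd36, and 2 falls among 27. The falls were Marco, a scavenger receptor, at −0.44 and Tyro3, a receptor for apoptotic cells, at −0.25, and relative to the median feature they were −0.28 and −0.09. Features at levels of 5.95 to 6.37, where both lie, had a median of −0.28, so Tyro3 fell no more than these. Of 23 Toll-like receptor genes Myd88, the shared adaptor, rose by 0.88 (SE 0.26), mainly from 3 to 12 months, and 1 fell. Oasl2 was the 1 of 22 type I interferon genes that rose, by 0.63 (SE 0.15), and 0 fell. It changed by 0.36 from 3 to 12 months, 0.35 from 12 to 18 and 0.22 from 18 to 24 months. Of 29 lysosomal genes 2 rose and 2 fell. Gla, the lysosomal alpha-galactosidase, rose by 0.81 (SE 0.19), and Tfeb, the transcription factor of lysosomal genes, fell by 0.45 on the log2 scale (SE 0.12). After median centring 1 of the 29 rose and 0 fell.

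Of 34 cytokine and NF-kB genes 12 fell (35.3%), 1 rose, and the median was −0.33. Tnf, the main pro-inflammatory cytokine of microglia, was at 8.77, 7.43, 8.03 and 8.47 at 3 months and 7.48, 7.76, 9.07 and 6.58 at 12 months. It was 6.55, 6.16, 7.58 and 7.60 at 18 months and 6.26, 6.83, 6.78 and 6.62 at 24 months. The ranges overlapped, and the fall of −1.15 (SE 0.33, limma adjusted p = 0.0213) did not have the step shape. Il12a, a subunit of interleukin 12, had it, at 6.26 to 6.71 against 5.68 to 6.25, with a fall of −0.44 (SE 0.09). Lta, a lymphotoxin subunit, fell by 0.41 and Traf1, a receptor adaptor, by 0.26 on the log2 scale. After median centring, 1 of the 34 fell and 0 rose.

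Tgfb2, an anti-inflammatory cytokine that Müller glia and neurons also make, was the 1 rise of that list, at 1.59 (SE 0.47, limma adjusted p = 0.0237). It did not pass without 18-month replicate 1 (1.47), 18-month replicate 2 (1.52) or 24-month replicate 1 (1.42). Its range was 6.14 to 9.13 in younger and 8.41 to 10.19 in older mice.

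Of 27 chemokine genes 8 fell (29.6%, near the 28.6% of all features) and 1 rose. The step falls were Ccr7, a lymph node homing receptor, at −0.49, Cx3cl1, the ligand of the microglial fractalkine receptor, at −0.34, and Cxcr3, a T cell chemokine receptor, at −0.62. After median centring 0 of the 27 rose and 0 fell. Of 10 bradykinin and histamine genes 5 fell (50%) and 0 rose, and after median centring 2 fell. The bradykinin receptor Bdkrb1 fell by 0.84 on the log2 scale (SE 0.11, limma adjusted p = 0.00638) and was partly back at 24 months. Its levels at 12, 18 and 24 months were 6.30 to 6.74, 5.35 to 5.93 and 5.88 to 6.30. Bdkrb2 fell by 0.51, the kininase Cpn1 by 0.42 and the histamine receptor Hrh4 by 0.31 on the log2 scale, each as a step; after median centring Bdkrb2 (adjusted p = 0.0541) and Hrh4 (0.0758) did not pass.

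Of 15 neurotrophic genes 6 fell (40%) and 0 rose, and after median centring 1 fell. Nrtn, which encodes neurturin, fell without overlap, at 6.95 to 7.40 against 6.22 to 6.86, by −0.59 (SE 0.11). Bdnf fell by 0.36 and Gdnf by 0.45 on the log2 scale, as steps. Relative to the median feature these 3 were −0.42, −0.19 and −0.28, and after median centring Nrtn passed (adjusted p = 0.0368) and Bdnf and Gdnf did not. Alox15, a lipoxygenase, fell by 0.37 on the log2 scale among 7 falls (33.3%) and 2 rises in 21 prostaglandin and phospholipase genes. After median centring that list had 1 fall and 0 rises.

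Of 21 matrix genes 9 fell (42.9%) and 2 rose. The fibrillar and basement membrane collagens Col1a1, Col1a2 and Col4a2 fell by 0.40, 0.38 and 0.39 on the log2 scale, as steps, and lay at −0.24, −0.22 and −0.23 relative to the median feature. After median centring 0 of the 21 fell. Pcolce2, an enhancer of procollagen processing, rose by 1.95 (SE 0.49). Its arrays ran from 6.13 to 9.79 in younger and 7.59 to 10.28 in older mice, and the 3 highest were the 3 lowest in microglia genes.

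Among antioxidant genes 3 of 24 rose and 5 fell, and after median centring 3 rose and 0 fell. Prdx3, the mitochondrial peroxiredoxin, rose as a step by 0.86 (SE 0.25). Prdx1, its cytosolic relative, rose by 0.64 (SE 0.19, limma adjusted p = 0.0233), and did not pass without 18-month replicate 1 (0.61, adjusted p = 0.052). Of 27 cilium genes 3 rose and 5 fell, and after median centring 2 rose and 1 fell. Besides Spa17 the intraflagellar transport gene Ift88 rose as a step by 0.70 (SE 0.18). Tctex1d4, a dynein light chain relative, fell without overlap by 0.69 on the log2 scale (SE 0.09, limma adjusted p = 0.00638), at 5.91 to 6.60 against 5.31 to 5.80. Its rise from 3 to 12 months, 0.37, kept it out of the step shape.

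The lists with the highest medians were of retinal cells that should not be in a CD11b sort. Of 22 Müller glia and astrocyte genes 10 rose (45.5%) and 1 fell, with a median of 0.79; after median centring 4 rose and 0 fell. Its scores were −1.23 to 0.47 in younger and −0.20 to 1.02 in older mice. Slc1a3, the glutamate transporter of Müller glia, rose as a step by 1.61 (SE 0.33, limma adjusted p = 0.0117). It stood at 8.36, 8.77, 6.78 and 8.06 at 3 months, 7.96, 8.15, 8.23 and 9.90 at 12 months, 10.56, 10.58, 9.30 and 10.17 at 18 months, and 10.18, 9.58, 9.29 and 9.44 at 24 months. Only 12-month replicate 4 reached the older arrays.

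Ndrg2, an astroglial protein, rose by 2.05 (SE 0.50), Rlbp1, the retinal binding protein of Müller glia, by 1.48 (SE 0.38), and the water channel gene Aqp4 by 1.22 (SE 0.33). The brightest of the list, Glul, the glutamine synthetase of Müller glia, was at 12.71 to 13.42 and 13.03 to 13.38, and did not pass (adjusted p = 0.261). With both scores as covariates, the differences of Slc1a3, Ndrg2, Rlbp1 and Aqp4 were 0.99, 1.16, 0.74 and 0.69. The share of such cells in each sample was not measured. A change in the number of cells of a type and a change in RNA per cell cannot be told apart in these bulk samples.

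Of 17 rod genes 3 rose and 0 fell, with a median of 1.11 and no steps, and after median centring 1 rose. The rod transducin gene Gnat1, the brightest of them, was at 12.53, 13.21, 10.10 and 8.90 at 3 months, 12.06 to 13.29 at 12 months and 12.69 to 13.67 in older mice, and missed the threshold (1.35, adjusted p = 0.0514). Its low values were those of 3-month replicates 3 and 4. Grk1 and Nrl passed over all arrays, and in 5 and 6 of the 16 fits that left out 1 array. Cone genes had a median of 0.66 over 14 members and bipolar genes 0.71 over 13, with 0 and 1 rises. Otx2, a transcription factor of photoreceptors and bipolar cells, rose by 1.87 (SE 0.50), and Pax6, of amacrine, ganglion and other retinal cells, by 1.78 (SE 0.47). With both scores as covariates the difference of Pax6 was 0.65. The amacrine and ganglion cell lists did not rise with Pax6. Of 11 amacrine genes 1 rose and 2 fell, with a median of −0.05. Of 13 ganglion cell genes 0 rose and 3 fell, with a median of −0.10. Without the 3 arrays lowest in microglia and the 2 lowest in rod genes, the medians were −0.02 for rods, −0.09 for cones and −0.13 for bipolar cells. The rod list itself picked the 2 younger arrays, and the 3 older ones had rod scores of 1.00 to 1.24. The lower rod median was therefore largely fixed by that choice. The median of the Müller glia and astrocyte list was then 0.25, against 0.79 over all arrays. Its scores on the omitted arrays were −1.23 and −1.02 in younger and 0.74 to 1.02 in older mice. The part of these cells in the rises was not tested.

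Of 16 endothelial genes 1 rose, Kdr (1.56, SE 0.44), the VEGF receptor, and 4 fell; after median centring 1 rose and 0 fell. Some lists of cells foreign to the retina or rare in it held falls and no rise. These were 4 of 9 T cell genes, 6 of 8 B cell genes, 6 of 13 neutrophil genes, 7 of 9 oligodendrocyte genes and 4 of 8 lens genes. After median centring the falls in these lists were 1, 0, 1, 1 and 0. Their levels were low. Cd3e, of the T cell receptor complex, was at 6.02 to 6.72 and 5.54 to 6.02, Pax5, of B cells, at 7.05 to 7.54 and 6.59 to 7.24, Mpo, of neutrophil granules, at 6.25 to 6.84 and 5.78 to 6.26, and Olig2, of oligodendrocytes, at 7.73 to 8.06 and 6.94 to 7.63. The falls of these 4 genes, −0.49 to −0.46, were −0.33 to −0.30 relative to the median feature.

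**Figure D5:**
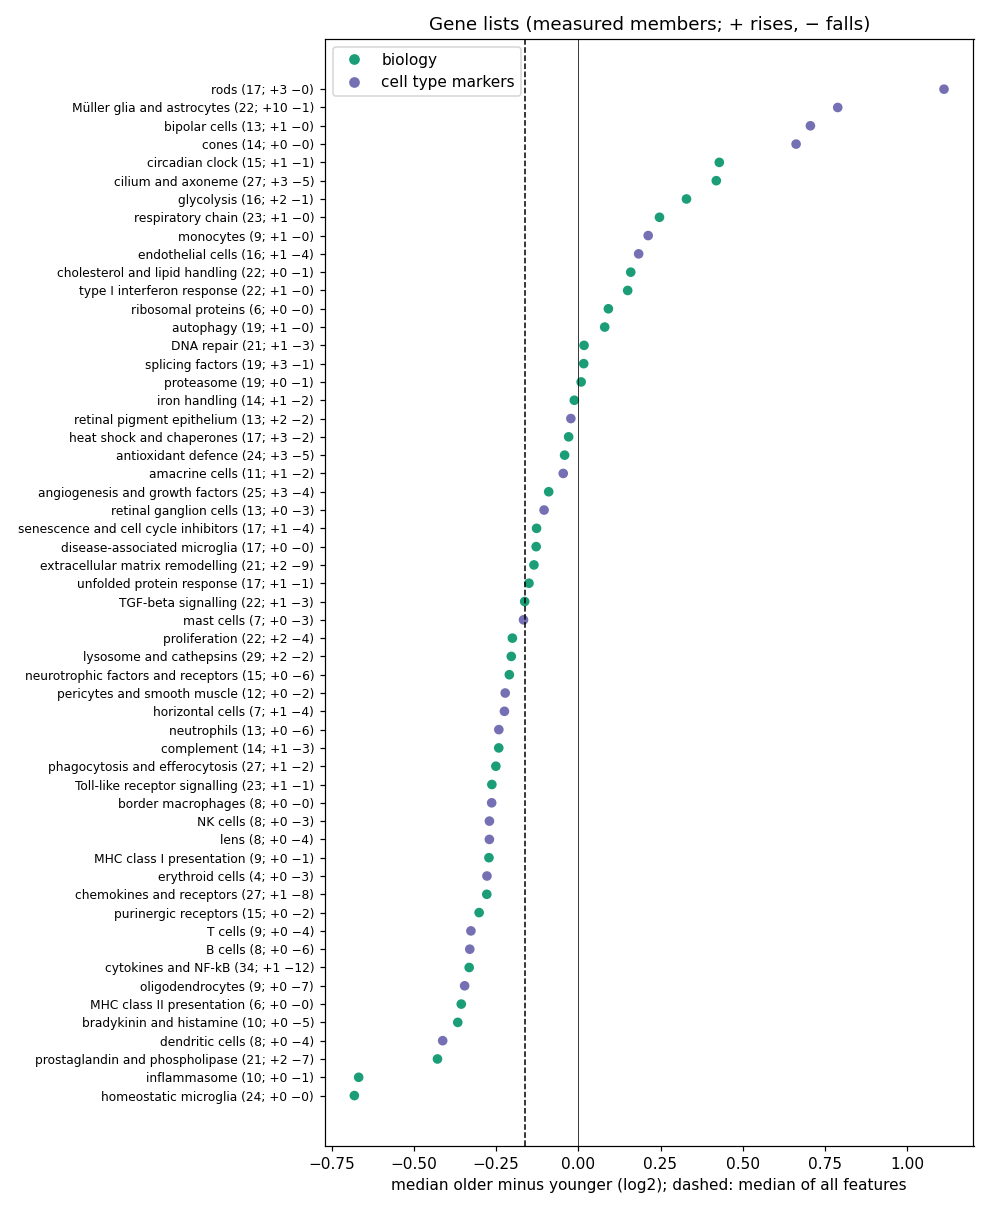
Median older minus younger difference (log2) over the measured members of each of 56 gene lists; in brackets the number measured, the rises (+) and the falls (−). The dashed line at −0.16 is the median of all features; rods (1.11) and Müller glia (0.79) lie highest and homeostatic microglia (−0.68) lowest.

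Not every called feature stepped. In 800 called features (158 rises) the change from 3 to 12 months alone reached 0.5 times the older minus younger difference in its direction, and in 48 (8 rises) the change from 18 to 24 months alone did so. In 628 (121 rises) the level moved back from 18 to 24 months by at least 0.5 times that difference. Dld, the lipoamide dehydrogenase of mitochondrial enzyme complexes, was of the first kind, going from 8.90 to 9.71 at 3 months and 9.91 to 10.60 at 12 months to 10.44 to 11.05 at 18 and 10.13 to 10.97 at 24 months (0.96, SE 0.17). Cxcl13, a B cell chemokine, was of the second kind, with 6.74, 8.24, 9.98 and 9.67 at 18 months and 9.55, 10.61, 11.82 and 12.19 at 24 months, against 6.50 to 9.96 in younger mice (2.44, SE 0.57). Efna5, an axon guidance ephrin, was high at 18 months alone, at 7.67 to 8.72, with 24 months at 6.70 to 7.63 and younger mice at 6.59 to 7.15. Pcdhb17, a neuronal protocadherin, was at 8.09 to 9.22 at 18 months and 6.51 to 8.99 at 24 months, against 5.97 to 7.42 in younger mice.

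The single pairs of ages gave fewer calls than the pooled comparison. In the fit over all arrays 18 against 3 months called 466 rises and 3068 falls, and 24 against 3 months called 0 with 4626 features at an unadjusted p under 0.05. In the same fit 18 against 12 months called 0 rises and 1 fall, and 24 against 12, 12 against 3 and 24 against 18 months called 0, with 2749, 793 and 432 features at an unadjusted p under 0.05. Between 18 and 12 months 5027 features had such a p. Without any change a share of 0.05 of the 16755 features would have one on average, which is more than 793 or 432. Fitted on their own 8 arrays, 24 against 3 and 18 against 12 months share no array. Each called 0 features in limma; at an unadjusted p under 0.05 in both, 154 features rose in both, 1759 fell in both and 8 went opposite ways. The other pairing without shared arrays, 24 against 12 and 18 against 3 months, called 0 and 3, and the same counts were 84, 1459 and 8. Across features, which are not independent replicates, the differences of the first pairing had the same sign in 80.7% (75.2% after median centring) and a Pearson correlation of 0.66. For Spa17, picked because its older and younger arrays did not overlap, a rise in all 4 pairs was fixed beforehand. Its size was 3.18 at 24 against 3, 3.11 at 18 against 12, 2.27 at 24 against 12 and 4.03 at 18 against 3 months.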

How the data were processed

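The deposited values are on a log2 scale and come from RMA (submitters' processing notes), whose version, probe sets and filters were not given in the sources used. Under 5 ng of RNA per sample was amplified (Nugen WT-Ovation One-Direct) for Affymetrix exon arrays, per the labels' protocols, and no genome build is named. The table held 16755 features (0 columns left out); 14996 had 1 symbol, of which 14941 matched RefSeq (GRCm38.p6), and only these were named. Low input and amplification add spread, dim values are compressed, and the number of arrays limits the precision.

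limma 3.58.1 (R 4.3.3, lmFit and eBayes) was fitted with 1 mean per age over 16 arrays, without a filter, after a test on simulated data. Called features had adjusted p under 0.05 (Benjamini-Hochberg). Named were the 12 largest step rises and falls without overlap and with 1 symbol (8 rises passed), up to 4 members per list with the smallest p, the brightest and smallest-p cell type markers, Itgam, and up to 3 features of each other shape; not all are described, and members whose call rested on single arrays were mostly left to the counts. Where a list gene had several features, the brightest stood for it. The members and lists were chosen with earlier results of these data known. Alternatives changed the filter, scale, variance model, array weights, blocks, covariates, arrays and thresholds; 3 were added after seeing the data.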

Additional observations from a re-analysis of the deposited data

Results flagged for a closer look

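In 528 groups of 4 or 8 arrays (85 genes and 3 scores by age and by older or younger mice), 28 had an extreme array whose gap to the next exceeded Dixon's critical value, and chance flags about 1 in 20 groups. No explanation was weighed.

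At 24 months, replicate 4 was highest for Zmynd11 (11.28, next 10.32), Chd4 (10.37, next 9.87), Hipk1 (9.58, next 9.16) and Cpn1 (5.97, next 5.58), and for Oasl2 among all older arrays (9.51, next 8.83). Replicate 1 of 24 months was lowest for the homeostatic microglia score (−2.02, next 0.40), P2ry12 (8.69, next 11.71), Itgam (7.19, next 10.03), Trem2 (7.16, next 9.18) and Pkib (6.46, next 6.80), and highest for Efna5 (7.63, next 6.80). At 18 months, replicate 4 was highest for Ganab (9.76, next 9.43) and Cx3cl1 (6.76, next 6.45), and replicate 3 for Msrb2 (8.44, next 7.44).

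Among younger arrays, 12-month replicate 4 was highest for Slc14a1 (10.18, next 8.13) and Pcolce2 (9.79, next 7.59), and for Slc1a3 at 12 months (9.90, next 8.23). Replicate 1 of 12 months was highest for Lta among younger arrays (7.00, next 6.74) and for Smad6 at 12 months (7.90, next 7.52). Replicate 2 of 12 months was highest for Cxcl13 among younger arrays (9.96, next 7.47) and lowest for Aqp4 at 12 months (7.29, next 8.96). Replicate 2 of 3 months was highest among younger arrays for Qprt (7.79, next 7.36) and Efna5 (7.15, next 6.81). Within 3 months it was highest for Otx2 (9.62, next 6.76), Olig2 (8.06, next 7.84) and Col4a2 (7.55, next 7.31), and lowest for Cxcl13 (6.56, next 7.21). Replicate 3 of 3 months was highest for Cxcr2 among younger arrays (7.30, next 6.74).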

How the results depend on the processing

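Calls between older and younger arrays (5435) and step features (1860) depended on the processing; the causes were not tested. Without the dimmest features (a share of 0.333) they were 2145 and 854, after median centring 731 and 321, and after quantile normalization 538 and 290. Array weights gave 9895 calls, averaging 18-month replicates 1 and 2 gave 3099, and an adjusted p under 0.01 gave 6 and 4. The rod score as a covariate, omitting the 3 arrays lowest in microglia genes, and omitting these and the 2 lowest in rod genes each gave 0 and 0. The microglia score gave 2396 and 1233, both scores 1628 and 938, and leaving out the 2 arrays low in rod genes 2670 and 1229. Within array numbers 1 to 8 there were 0 calls and within 9 to 16 there were 112, while the number as a block or a covariate gave 4439 and 5111. Asking only the sign of the age differences gave 3608 steps. Of the settings added after seeing the data, dim features left out with median centring gave 1919 and 546, the 5 arrays left out with centring 0 and 0, and both scores with centring 11 and 7. The 11 were Spa17, Chil1, Ganab, Dld, Pcdhb17, Xrcc6, Nf2, Npr2, Cnot6l and H2-Ke6, which were higher, and Bdkrb1, which was lower.

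Leaving out 1 array gave 3040 to 6267 calls and 785 to 2325 steps. Calls fell by over 1.5 times without 18-month replicate 1 (3040) or 2 (3049), 24-month replicate 1 (3539) or 12-month replicate 1 (3619), and steps without 12-month replicate 1 (785) or 2 (1109) or 24-month replicate 1 (956). The 24 against 18 month count was 0 to 3, with 3 called without 24-month replicate 1. The replicate block gave 4433 calls and 1413 steps; same-numbered arrays deviated together in all pairs for number 3 alone, so the numbers were not taken to pair the samples.

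Sign changes were seen in 3 genes that were not called. All 3 belong to the list that gave the microglia score and picked the 3 arrays lowest in microglia genes. Itgam became 0.41 with the rod score, 0.21 with the microglia score, 0.38 with both, 0.32 and 0.63 without 3 and 5 arrays, and 0.41 and 0.75 with centring added to both scores and to leaving out 5 arrays. P2ry12 became 0.020 and 0.14, and Trem2 0.047, with 5 arrays left out (P2ry12 without and with centring, Trem2 with centring).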
